A study of Mus musculus with 9 samples.

Results

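SOX6 binding sites were set against H3K27 acetylation in mouse oligodendrocyte progenitor cells (OPCs), and each SOX6 summit was placed inside, at the rim of, between or outside the acetylated regions of the same cell line. The members are the 4 OPC peak lists of chromosomes 1 to 19, with 22320 SOX6 peaks and 29975 H3K27ac peaks in line 129O1 and 15166 SOX6 peaks and 26967 H3K27ac peaks in line EpiSC5. They hold 94428 peaks and come from 4 of the 9 samples of the series. Its 7 lists hold 165767 peaks when all chromosomes are counted. A summit was called central when it lay in the middle 50% of the width of an H3K27ac peak and peripheral when it lay in the outer 25% at either end. A gap summit lay between neighbouring H3K27ac peaks at most 2 kb apart, and every remaining summit was outside.

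SOX6 is a SoxD transcription factor with an HMG box that binds the minor groove of DNA at letters close to AACAAT and bends it, and it has no transactivation domain of its own. In the oligodendrocyte lineage it is known for keeping progenitors from maturing early, partly by competing with the SoxE factors Sox9 and Sox10 at shared sites. Acetylation of lysine 27 on histone H3 marks active promoters and enhancers, and wide acetylated domains often lie over genes that define a cell's identity.

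The OPCs were made in culture from epiblast stem cells, pluripotent cells of the early embryo. The labels list the lines EpiSC5 and 129O1 and then the strains 129SvEv and 129S1/SvImJ, without tying each line to its strain, and they give no allele or compound. Both OPC lines grew with bFGF and PDGFA and without SHH, and were sorted on CD140a and NG2. Chromatin was precipitated with an H3K27ac antibody (9 µg) or a Sox6 antibody (15 µg), with 1 library per line and target. The 2 lines are the replicates, and the spread between them holds line and library differences together. The oligodendrocytes (OLs) used below as a later readout are O1+ intermediate cells of the same lines, with H3K27ac in both and SOX6 in EpiSC5 only. All of these groups share the stem cell origin, and no cell taken from tissue is among them. The labels state at least 20000000 reads per library and name a pair of sequencers without saying which library ran on which.

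All 7 OPC markers (Pdgfra, Cspg4, Ptprz1, Sox10, Olig2, Olig1 and Nkx2-2) carried H3K27ac in both lines, summing to 91.0 kb in 129O1 and 77.9 kb in EpiSC5 within the gene bodies and 10 kb to each side. The 6 astrocyte markers were acetylated too but summed to 33.9 kb and 26.4 kb, and the 5 neuron markers to 51.2 kb and 42.6 kb, of which Map2 alone gave 37.4 kb and 31.0 kb. Of 5 microglia markers, Cx3cr1, Csf1r and Itgam had none in either line and the list summed to 4.73 kb and 4.09 kb. The 4 pluripotency markers were acetylated but summed to 5.60 kb and 3.18 kb. Of all 20665 protein-coding genes, 65.8% were acetylated in both lines within the same window. The median gene had 1.76 kb in 129O1 and 1.36 kb in EpiSC5. These marker lists differ in length, so their sums do not compare per gene. The 4 mature oligodendrocyte markers summed to 10.995 kb and 7.29 kb. Mbp (6.17 kb and 4.32 kb) and Mog (4.24 kb and 2.97 kb) were acetylated in both lines and held SOX6 inside, Mobp had 0.593 kb in 129O1 only, and Mag had none.

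Some sequences are shown first because the results return to them. Wide H3K27ac domains with many SOX6 summits lie over Mir9-1 and Mir9-2 in both lines and over Mir9-3 in 129O1. All 3 are genes for miR-9, a microRNA of the neural lineage, and give the same mature strands. They are printed with the seed, bases 2 to 8, in capitals (RefSeq, GRCm38.p6; the 5p strand lies at chr3:88215613-88215635 in Mir9-1, chr13:83738821-83738843 in Mir9-2 and chr7:79505279-79505301 in Mir9-3, all on the plus strand).
mmu-miR-9-5p: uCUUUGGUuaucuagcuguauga
mmu-miR-9-3p: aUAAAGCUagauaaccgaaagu

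The 250 bases before the starts of Olig2 and Dusp6 are shown as examples chosen for 2 traits together. An acetylated SOX6 summit fell in each of them in both lines, and each held AACAAT or ATTGTT. Such letters were in 11.9% of the 888 promoter windows with an acetylated summit in both lines. Hes5 also had such a summit in these bases in both lines, without the letters, and is not printed. The Hes5 start used here lies inside the gene body, so this is the same summit given further on as within its body. Olig2 encodes the bHLH factor that specifies the lineage, and Dusp6 a phosphatase that restrains ERK. Capitals mark AACAAT or its reverse complement ATTGTT (RefSeq, GRCm38.p6; chr16:91225300-91225549 for Olig2 and chr10:99262981-99263230 for Dusp6, plus strand).
Olig2 promoter: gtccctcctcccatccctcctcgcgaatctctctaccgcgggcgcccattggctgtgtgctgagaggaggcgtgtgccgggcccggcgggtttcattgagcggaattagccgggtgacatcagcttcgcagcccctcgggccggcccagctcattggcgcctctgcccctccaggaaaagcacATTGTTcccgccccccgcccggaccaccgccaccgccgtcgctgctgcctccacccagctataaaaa
Dusp6 promoter: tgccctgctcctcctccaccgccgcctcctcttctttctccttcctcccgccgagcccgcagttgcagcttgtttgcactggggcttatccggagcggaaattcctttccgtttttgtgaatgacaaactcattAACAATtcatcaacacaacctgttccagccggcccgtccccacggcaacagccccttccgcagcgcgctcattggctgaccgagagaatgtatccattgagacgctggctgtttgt

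The Olig2 letters lay 38 bp from the summit in 129O1 and 32 bp in EpiSC5, and the Dusp6 letters 34 bp and 36 bp. These letters are frequent by themselves, and their share in other promoters is given further on.

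The first comparison asked where SOX6 sits relative to acetylated chromatin. H3K27ac peaks covered 1.92% of the length of chromosomes 1 to 19 in 129O1 and 1.47% in EpiSC5, yet 66.7% of SOX6 summits in 129O1 and 64.1% in EpiSC5 lay inside them (65.4% ± 1.85, SD, n = 2 lines). That is 34.7 times and 43.5 times the number that an even spread over the length would place there. Central summits made up 55.0% and 54.1% of all summits and peripheral ones 11.7% and 10.0%. Gap summits were rare, with 18 in 129O1 and 27 in EpiSC5. A further 5.50% and 7.35% lay outside but within 2 kb of a peak, and 27.7% and 28.4% lay farther away. In both lines the centre held more summits than all other places together, on under 1% of the length (0.962% and 0.736%).

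**Figure D1:**
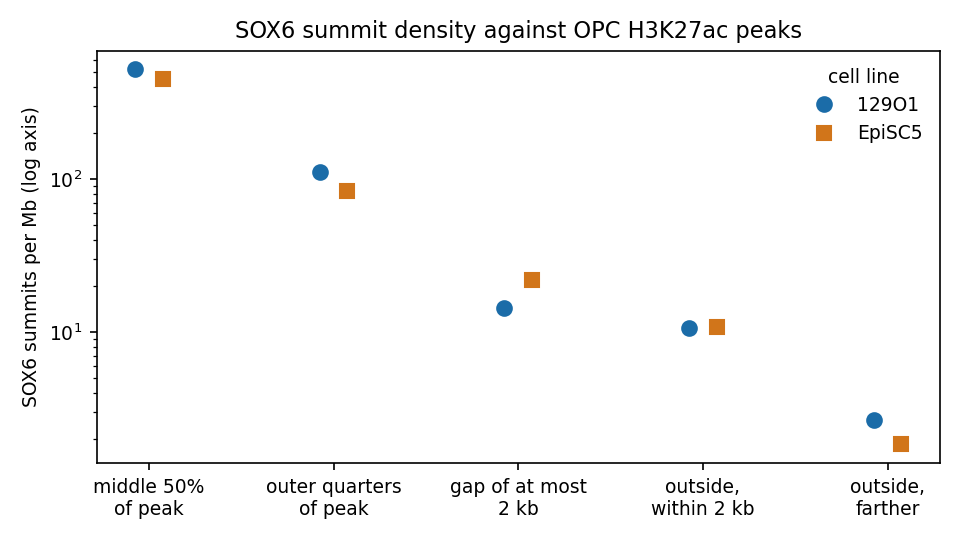
SOX6 summits per Mb (log axis) of each place relative to H3K27ac peaks of the same line, one point per line (circles 129O1, squares EpiSC5). Density falls from 518 and 453 per Mb in the middle 50% of peaks to 2.69 and 1.85 per Mb farther than 2 kb away.

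Central and peripheral parts have the same total length by construction, so their summit counts compare directly. Density was 518 summits per Mb in the centre against 111 at the periphery in 129O1, and 453 against 83.9 in EpiSC5. The log2 ratio was 2.23 and 2.43 (2.33 ± 0.14, SD, n = 2 lines). Gaps held 14.5 and 22.0 summits per Mb, less than the periphery in both lines, with log2 ratios of -2.93 and -1.93 (-2.43 ± 0.71). Within 2 kb outside a peak the density was 10.7 and 10.8 per Mb, against 2.69 and 1.85 farther away, a log2 ratio of 1.99 and 2.54 (2.27 ± 0.39). With only the higher-scoring 50% of H3K27ac peaks this mean ratio was 0.32 and the mean inside share 42.4%. In these 3 comparisons both lines moved the same way and the difference exceeded the spread between lines.

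A total of 8 such differences were tested by an exact two-sided sign-flip permutation over the 2 lines, in which 0.5 is the smallest p that can be reached. For 7 of them the exact permutation p was 0.5 and for 1 it was 1, and Benjamini-Hochberg adjustment over the 8 gave 0.571 and 1. No difference here can therefore pass 0.05, and each is read against the spread between the lines.

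Along the width of the H3K27ac peak, summits piled up symmetrically in the middle. With the width divided into 10 equal bins, the 2 central bins held 23.9% and 23.99% of the inside summits in 129O1, against 1.73% and 1.82% in the outermost bins. In EpiSC5 they held 24.4% and 24.97%, against 1.43% and 1.41%. The middle 50% held 82.4% of inside summits in 129O1 and 84.4% in EpiSC5, where an even spread gives 50%. The median summit lay 172.5 bp from the centre of its peak in 129O1 and 147 bp in EpiSC5.

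Centring differed with the width of the peak and with how many summits it held. Peaks were ranked by width and divided into 5 bins of 20% each. From the narrowest to the widest bin, the middle 50% held 58.5%, 89.5%, 94.0%, 92.1% and 71.4% of summits in 129O1. In EpiSC5 the same shares were 56.5%, 88.0%, 93.4%, 93.6% and 74.7%. By this share both lines were least centred in the narrowest bin, whereas in bp the widest bin was. The median summit of the narrowest bin lay 118.5 bp from the centre in 129O1 and 96 bp in EpiSC5. In the widest bin it lay 510.5 bp and 392 bp away. Peaks with 3 or more summits had 54.4% and 52.7% of them in the middle, near an even spread, whereas peaks with 1 summit had 87.8% and 88.2%. Stronger SOX6 peaks were more central: the share was 78.6% among the 25% of inside summits with the lowest SOX6 fold and 89.7% among the 25% with the highest in 129O1, and 78.98% and 90.7% in EpiSC5.

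**Figure D2:**
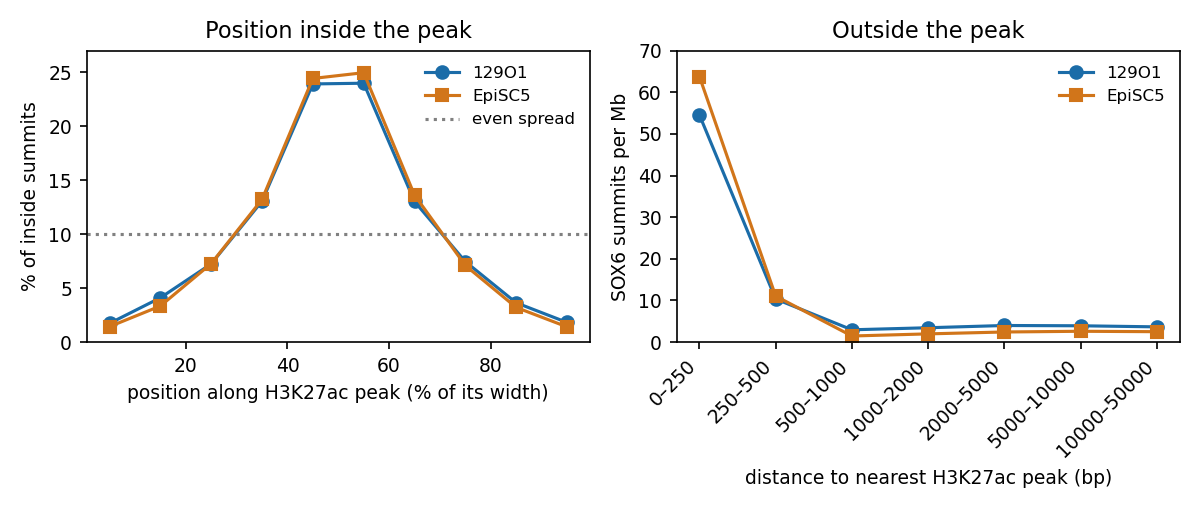
Left, percent of inside SOX6 summits in each of 10 equal bins of the H3K27ac peak width (dotted line, 10%, an even spread). Right, SOX6 summits per Mb by distance to the nearest H3K27ac peak for summits outside peaks and gaps. Both lines peak in the 2 central bins. Outside, the density drops within 500 bp and is at most 3.98 per Mb from there to 50 kb, the farthest distance plotted.

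Outside the peaks the steep part of the excess was short-ranged. Within 250 bp of a peak end the density was 54.6 per Mb in 129O1 and 63.8 in EpiSC5, and from 250 to 500 bp it was 10.4 and 11.04. From 500 to 1000 bp it was 2.95 and 1.46, at or below the 3.98 and 2.42 found from 2 to 5 kb. Of the 1228 and 1114 summits within 2 kb, 796 and 832 lay in the first 250 bp. From 10 to 50 kb the density was 3.65 and 2.49 per Mb, still above the 1.60 and 1.25 per Mb beyond 50 kb.

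Gaps held few SOX6 summits, but they covered only 0.0505% of the length in 129O1 and 0.0499% in EpiSC5. Their summits were 1.60 times and 3.57 times the number that an even spread would place there. Per Mb, gaps held 14.5 and 22.0 summits, above the 10.7 and 10.8 within 2 kb outside a peak. There were 808 gaps of at most 2 kb in 129O1 and 889 in EpiSC5, the shortest 1098 bp and 826 bp, so closer peaks do not occur in these lists. Of these gaps 18 (2.23%) and 26 (2.92%) held a summit. A SOX6 site was in a gap in both lines at 3 places: in Slc39a11, a zinc transporter gene, with folds of 9.10 in 129O1 and 7.02 in EpiSC5; in Samd4, an RNA-binding translational regulator, with 6.59 and 4.57; and beside Ypel2, with 5.70 and 5.32. These summits lay 131 and 101 bp, 88 and 122 bp, and 60 and 159 bp from the nearer peak, nearer to the rim of a peak than to mid-gap.

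The place of a site was largely shared between the lines. Of 13696 SOX6 sites whose peaks overlapped between lines, 81.4% had the same class, and their summits lay a median of 22 bp apart. Of shared sites central in 129O1, 82.6% were central in EpiSC5, and of those central in EpiSC5, 90.5% were central in 129O1. Peripheral sites were peripheral in the other line in 53.1% of those of 129O1 and 56.3% of those of EpiSC5. Inside summits were shared more often than outside ones: 66.1% of inside against 51.0% of outside summits of 129O1 had a SOX6 peak in EpiSC5, and 93.6% against 84.5% of those of EpiSC5 had one in 129O1. The Notch1 locus shows a change of class with little change of summit. All 8 of its summits in 129O1 were peripheral and 6 of 7 in EpiSC5 were central. In 129O1, 6 of the 8 lay in a single H3K27ac peak of 19311 bp, and in EpiSC5 the matching summits lay in separate peaks of 5845 bp and 4928 bp. The strongest summit lay at position 26500894 of chromosome 2 in 129O1 and 26500934 in EpiSC5.

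The second comparison asked whether H3K27ac peaks with a SOX6 summit are wider than those without. With SOX6 the median width was 1667 bp (n = 13125 peaks) against 1102 bp without (n = 16850) in 129O1, and 1498.5 bp (n = 8950) against 986 bp (n = 18017) in EpiSC5. The log2 ratios were 0.60 and 0.60 (0.60 ± 0.0048). With equal numbers of peaks in both lines, taken by score, they were 0.45 and 0.60 (0.53 ± 0.11), and with the higher-scoring 50% of H3K27ac peaks 0.35 and 0.38. Peaks with SOX6 were 43.8% of peaks and 55.9% of acetylated length in 129O1, and 33.2% and 44.6% in EpiSC5. A wide peak has more room for a summit, so the number of summits per kb was set beside this.

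Per kb of acetylated length, SOX6 did not keep growing with width. From the narrowest to the widest bin, 129O1 had 0.272, 0.359, 0.361, 0.314 and 0.289 summits per kb. EpiSC5 had 0.158, 0.308, 0.323, 0.273 and 0.247. Density thus peaked in peaks of middle width in both lines, and the widest bin exceeded the narrowest by a log2 ratio of 0.09 in 129O1 and 0.64 in EpiSC5 (0.37 ± 0.39). This difference was smaller than the spread between lines. When H3K27ac peaks within 2 kb were joined, its direction in 129O1 turned, at -0.01, while EpiSC5 gave 0.50. With the higher-scoring 50% of SOX6 peaks the ratio was larger, 0.39 and 1.16 (0.77 ± 0.55). It also exceeded its spread with the higher-scoring 50% of H3K27ac peaks (0.28 ± 0.26), with equal numbers of peaks in both lines (0.39 ± 0.36) and with the H3K27ac list of the other line (0.32 ± 0.21), so whether it exceeds the spread depends on the lists used. The share of peaks with any summit still climbed over the bins, to 69.1% in the widest against 13.8% in the narrowest in 129O1, and 55.7% against 6.08% in EpiSC5.

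**Figure D3:**
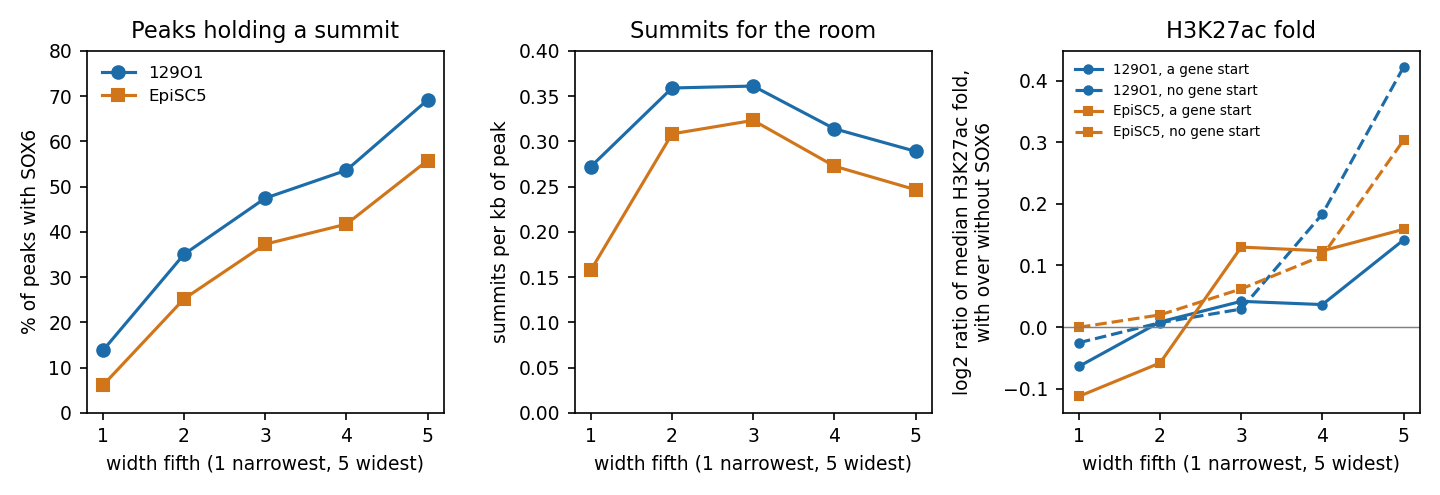
Left, percent of H3K27ac peaks with a SOX6 summit by width bin (20% of peaks each). Middle, summits per kb. Right, log2 ratio of the median H3K27ac fold, with over without SOX6, split by whether the peak covers a gene start (solid) or not (dashed), circles 129O1 and squares EpiSC5. In the widest bin the ratio is above 0 in all 4 curves of the right panel.

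SOX6 favoured acetylated peaks away from gene starts. Of H3K27ac peaks over a gene start, 39.1% in 129O1 and 23.0% in EpiSC5 held a summit, against 45.7% and 37.3% of peaks over none (chromosome 18 was not analysed here for starts). The width difference held in both kinds of peak. Over starts the median was 2184 bp with SOX6 against 1590 bp without in 129O1, and 2057.5 against 1441 bp in EpiSC5. Elsewhere it was 1504 against 910 bp, and 1388.5 against 767 bp.

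Strength of acetylation differed by width. Over all peaks the median H3K27ac fold, the authors' value per peak, was 5.06 with SOX6 against 3.70 without in 129O1, and 4.73 against 3.81 in EpiSC5. Within width bins the mean log2 ratio was -0.016 and 0.0078 (-0.0041 ± 0.017), and here the exact permutation p was 1. The bins did not share a sign. In the third the log2 ratio was -0.10 in 129O1 and -0.04 in EpiSC5, and in the widest 0.14 and 0.12. Starts and non-starts hold unequal shares of these peaks, as 16.4% of the peaks with SOX6 in the third bin covered a start in 129O1 against 37.8% of those without. Split by start, the third bin gave 0.04 over starts and 0.03 elsewhere in 129O1, and 0.13 and 0.06 in EpiSC5. The widest bin gave 0.14 and 0.42 in 129O1, and 0.16 and 0.30 in EpiSC5.

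Inside acetylation, SOX6 peaks themselves were only slightly stronger by median fold, and differed more by −log10 q and width. The median −log10 q was 22.1 inside against 15.4 outside in 129O1, and 22.6 against 17.1 in EpiSC5. The median SOX6 peak width was 340 bp inside against 267 bp outside in 129O1, and 338 against 272 bp in EpiSC5. The median SOX6 fold was 5.21 inside against 5.06 outside in 129O1, and 5.06 against 4.96 in EpiSC5, log2 ratios of 0.04 and 0.03. With only the higher-scoring 50% of H3K27ac peaks this direction turned, at -0.09 and -0.04. The share inside followed a U over 10 equal bins of SOX6 fold: 80.1% in the lowest bin, 56.2% in bin 5 and 79.6% in the highest in 129O1, and 76.99%, 54.6% and 75.9% in EpiSC5. Both the weakest and the strongest sites thus lay in acetylation more often than those of middle fold. Very strong sites were seen on either side of the border. The strongest inside site in both lines, on chromosome 14 in no gene body, had a fold of 46.9 at position 118230659 in 129O1 and 43.4 at 118230655 in EpiSC5. A peripheral summit within Nkx2-2, a homeobox factor of OPCs, had a fold of 34.6 at position 147180840 of chromosome 2 in 129O1 and 32.1 at 147180845 in EpiSC5. A summit far from acetylation on chromosome 13 had 39.6 at position 46173309 and 32.7 at 46173302.

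The places also differed in readouts that did not define them. OPC summits inside OPC acetylation lay in OL H3K27ac of the same line in 73.1% of cases in 129O1 and 64.4% in EpiSC5, against 25.7% and 28.4% of those outside. The log2 ratio was 1.51 and 1.18 (1.34 ± 0.23). This ratio sets acetylated against unacetylated OPC positions. Positions without a SOX6 summit were not counted for it, so it does not single out SOX6 sites. In EpiSC5, 12.2% of inside SOX6 peaks (1188 of 9721) overlapped an OL SOX6 peak, against 5.30% of outside ones (287 of 5418). Within 4 equal bins of SOX6 fold, low to high, the inside shares were 19.5%, 10.1%, 6.64% and 11.5%, and the outside shares 6.70%, 3.61%, 3.76% and 8.43%. Inside exceeded outside in every bin. The OL SOX6 readout is 1 library and has no replicate. H3K27ac peaks with a summit overlapped OL H3K27ac in 78.2% of cases against 60.7% without in 129O1, and 71.8% against 53.8% in EpiSC5. Wider peaks overlap OL acetylation more often by themselves, and in the widest width bin the shares were 95.8% with and 93.8% without in 129O1, and 88.9% and 89.8% in EpiSC5. In the narrowest they were 43.0% and 36.0% in 129O1, and 40.5% and 28.7% in EpiSC5. The fourth bin went the other way, with 84.5% and 87.8% in 129O1, and 75.0% and 79.0% in EpiSC5. Among peaks over no gene start, those with SOX6 had the higher share in all bins of both lines. Their widest bin gave 93.1% and 86.3% in 129O1, and 84.3% and 76.1% in EpiSC5.

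Gene starts gave a further view. Of 20085 annotated starts, 50.2% in 129O1 and 46.0% in EpiSC5 were acetylated. A summit lay within 1 kb of 35.9% of acetylated against 1.58% of unacetylated starts in 129O1, and of 19.4% against 1.40% in EpiSC5. Most inside summits were distal even so: 21.8% and 16.1% lay within 1 kb of a start, and 65.6% and 71.1% more than 10 kb away. Of those within 1 kb, 61.1% and 64.6% were upstream of the start, as at Olig2 and Dusp6, where the summits lay 102 and 96 bases, and 79 and 77 bases, before it.

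In promoter windows (250 bases before to 50 after a start), AACAAT or ATTGTT occurred in 11.9% of the 888 with an acetylated SOX6 summit in both lines. It occurred in 4.08% of 6936 windows with acetylated starts and no SOX6, in 12.5% of 9806 with unacetylated starts and no SOX6, and in 8.78% of all 20085. The shorter ACAAT or ATTGT was in 33.8%, 15.7%, 35.3% and 26.8% of the same sets, and ACAAAG or CTTTGT in 19.3%, 11.5%, 20.5% and 16.6%. All windows with AACAAT also hold ACAAT. Acetylated windows with SOX6 thus held each motif more often than acetylated windows without it, and close to the share of unacetylated ones. Base composition moved along: the median GC content was 61.3% with SOX6, 63.3% in acetylated windows without, 50% in unacetylated windows and 57% over all windows, and its part in the result was not tested. In the 106 SOX6 windows with AACAAT the letters lay a median of 40 bp from the summit in each line. This is the nearest pair in short windows chosen to hold both. No control letters were measured, so closeness beyond that choice was not tested.

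The gene comparison concerned the genes of each class, counted where a summit lay in the gene body or within 10 kb of it in both lines, so a summit can count for neighbouring genes. Of 20665 protein-coding genes, 5230 had a summit inside acetylation in both lines (25.3%), 4508 a central one (21.8%), 903 a peripheral one (4.37%) and 3 a gap one (0.0145%). An outside summit was found at 2019 genes (9.77%), and 724 (3.5%) had outside summits in both lines and none inside in either. Another 4576 (22.1%) were acetylated in both lines without any summit. The longer SOX6 list of 129O1 alone gave 8066 genes with an inside summit, and that of EpiSC5 alone 5486. The count in both lines was 3141 for the gene body alone and 9266 with 50 kb to each side.

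The share of genes with an inside summit climbed with acetylated length. Among the 13607 genes acetylated in both lines (65.8%), 38.4% had an inside summit in both. Over 5 equal bins of acetylated length, from short to long, the share was 11.2%, 20.8%, 32.3%, 49.2% and 78.7%. The median acetylated length per gene ran from 1.19 kb in the lowest to 7.33 kb in the highest bin in 129O1. Gene list counts below have to be read beside this gradient. They also move with the window, the SOX6 list and the H3K27ac list. For the gene body alone inside summits were at 15.2% of all genes, 19 of 29 OPC genes, 7 of 19 lineage transcription factors, 9 of 18 MAPK feedback genes, 7 of 19 Notch, BMP and Id genes, 8 of 29 myelin genes, 2 of 14 astrocyte genes and 3 of 13 housekeeping genes. With the higher-scoring 50% of SOX6 peaks they were at 14.2% of all genes, 21 of 29 OPC genes, 10 of 19 lineage transcription factors, 9 of 18 MAPK feedback genes, 12 of 29 myelin genes, 3 of 14 astrocyte genes and 3 of 13 housekeeping genes. With 50 kb to each side they were at 44.8% of all genes, 7 of 18 cell cycle genes and 6 of 20 cholesterol genes. With the higher-scoring 50% of H3K27ac peaks they were at 19.8% of all genes and 23 of 29 OPC genes. Under that setting myelin genes had 11 of 29, neuron genes 5 of 16 and microglia genes 0 of 12. Astrocyte genes stayed at 6 of 14 and housekeeping genes at 7 of 13.

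**Figure D4:**
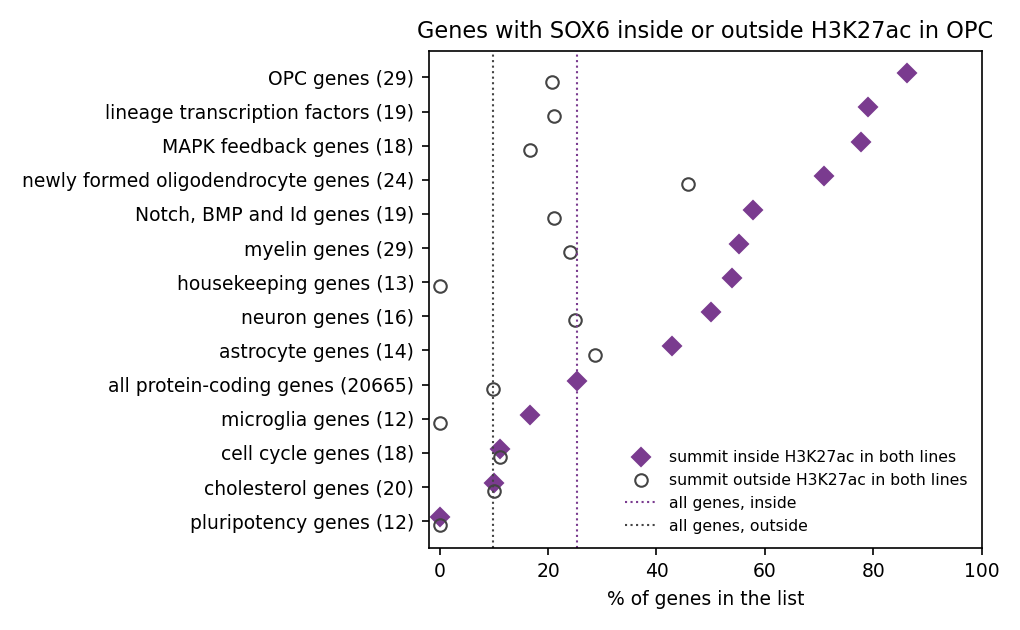
Percent of the genes in each list (number found in parentheses) with a SOX6 summit inside H3K27ac in both lines (diamonds) or outside it in both lines (circles), and the shares over all 20665 genes (dotted lines, 25.3% inside and 9.77% outside). OPC genes lie highest for inside summits and newly formed oligodendrocyte genes highest for outside summits.

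OPC genes led the lists. Inside summits in both lines were found at 25 of 29 (86.2%), against 25.3% of all genes. The median member had 9.49 kb acetylated in 129O1 and 7.73 kb in EpiSC5, against 1.76 kb and 1.36 kb for the median of all genes. In the bin of longest acetylation, with a median of 7.33 kb in 129O1, the share was 78.7%. Cspg4, the proteoglycan NG2 used in the sort, had 4 inside summits in 129O1 and 4 in EpiSC5. Pdgfra, the receptor for the PDGFA in the medium, had 4 and 3, plus 1 in each line that was far from acetylation. Ptprz1, a receptor phosphatase of progenitors, had 3 and 3, the strongest at 22.2-fold and 11.9-fold. The adhesion gene Dscam had 11 and 9. Of the members without an inside summit in both lines, Rlbp1 had none in either although it was acetylated over 6.08 kb and 3.46 kb.

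Transcription factors of the lineage had inside summits at 15 of 19 (78.9%), close to the 78.7% in the bin of longest acetylation. In 129O1 the median member had 8.83 kb acetylated, against 7.33 kb in that bin. In EpiSC5 these lengths were 7.73 kb and 5.76 kb, so the list was not above genes of long acetylation. Sox10 had 3 in 129O1 and 3 in EpiSC5, a central pair beyond the left-hand end of its body (6.97-fold and 5.57-fold in 129O1, 7.54-fold and 3.94-fold in EpiSC5) and a peripheral one beyond the right-hand end (6.97-fold and 4.99-fold). Olig2 had 6 and 4. In 129O1 they all lay in 1 H3K27ac peak of 13533 bp, at 3.15-fold to 9.23-fold. In EpiSC5, 3 lay in a peak of 9382 bp and the strongest, at 7.06-fold, in one of 1854 bp. The Olig2 promoter summit had 6.83-fold in 129O1 and 6.01-fold in EpiSC5 and was central in both. Olig1 had 4 and 4, of which 3 and 3 were peripheral. Sox8, a SoxE partner of Sox10, had 6 and 4, reaching 18.7-fold and 13.3-fold. Tcf7l2, a Wnt effector of maturing cells, had 6 and 5, the strongest central one at 27.9-fold and 21.3-fold. Other sites within the body of Tcf7l2 had 16.1-fold and 10.6-fold, and 13.7-fold and 11.9-fold, and all its summits lay in OL H3K27ac. Sox9 and Nkx6-2 had none in either line, and Nkx6-2 was not acetylated.

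Sox6 itself carried 18 inside summits in 129O1 and 14 in EpiSC5 over a 570 kb gene with 76.9 kb and 57.2 kb of acetylation. That is 0.234 and 0.245 per kb of acetylation, against 0.289 and 0.247 in the widest bin of all peaks. Only 2 and 1 of its summits were outside. Its SoxD relative Sox5 differed: 12 and 9 were inside and 11 and 7 outside, with 19.2 kb and 20.5 kb acetylated.

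MAPK feedback genes had inside summits at 14 of 18 (77.8%). Their median acetylated length in 129O1, 6.19 kb, lay between the bin medians of 4.19 kb and 7.33 kb. Those bins had inside summits in 49.2% and 78.7%. Dusp6 had 4 and 3, Etv1 5 and 4, Etv5 4 and 3, and Spry4, an inhibitor of receptor tyrosine kinase signalling, 2 and 2. Ccnd1, the G1 cyclin, stood apart: it had 0 summits of any class in both lines, while its H3K27ac domain of 8374 bp in 129O1 was among the 5 widest without SOX6. Ccnd1 acetylation covered 6.17 kb in EpiSC5.

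Notch, BMP and Id genes had inside summits at 11 of 19 (57.9%). Their median acetylated length in 129O1, 6.16 kb, lay between the same 2 bins, with 49.2% and 78.7%. Dll1, a Notch ligand, had 9 in 129O1 and 5 in EpiSC5 over 10.98 kb and 9.26 kb of acetylation. Its strongest 129O1 summit, at 19.6-fold, was peripheral in the single 10979-bp peak, and the EpiSC5 summit at the same place, at 11.6-fold, was central in a peak of 1433 bp. Notch1 had 8 and 7, all inside, and Notch2 3 and 2. Hes5, a Notch target that restrains differentiation, had 4 and 2, one of them within its body at 10.5-fold and 10.0-fold. Id3 had 3 and 3, whereas Id4 had none in either line and Id2 1 in 129O1 only.

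Genes of newly formed oligodendrocytes had inside summits at 17 of 24 and outside summits at 11 of 24, where 9.77% of all genes had outside summits. Their median gene length was 82.8 kb against 17.5 kb over all genes, and a long gene has more room for outside summits. The median member had 6.71 kb acetylated in 129O1, between bins with medians of 4.19 kb and 7.33 kb. Those bins had inside summits in 49.2% and 78.7%, against 70.8% of this list. Fyn, a Src family kinase, had 9 and 8 summits, all inside, and Frmd4a had 14 and 9 inside and 3 and 3 outside. Enpp6, a choline phosphodiesterase that marks the first postmitotic cells, had only outside summits, 3 in 129O1 and 2 in EpiSC5. The strongest reached 21.9-fold and 15.6-fold, lay 124 kb and 9.17 kb from the nearest OPC H3K27ac, and lay in OL H3K27ac in both lines. In EpiSC5 both Enpp6 summits also lay on OL SOX6 peaks.

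Myelin genes had inside summits at 16 of 29 (55.2%). The median member had 2.03 kb acetylated in 129O1, between bins with medians of 1.98 kb and 2.85 kb, which had 20.8% and 32.3%. The bins hold only genes acetylated in both lines, as were 22 of the 29. Cnp, an enzyme of myelin cytoplasm, had 3 and 3, all central, at up to 18.2-fold and 11.96-fold. Myrf, the myelin gene regulatory factor, had 2 and 2 inside, at 14.1-fold and 14.02-fold in 129O1 and 8.92-fold and 9.91-fold in EpiSC5, and 1 and 1 outside, at 5.93-fold and 4.26-fold. All 3 Myrf sites lay in OL H3K27ac in both lines. Mbp had 2 and 2 inside, and in EpiSC5 1 outside. Mobp had only outside summits, 2 and 1, and Mag had none of either class. Of the 13 myelin genes without inside summits in both lines, Mag, Nkx6-2, Tmem125 and Hapln2 had no OPC acetylation in either line.

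Cell cycle and cholesterol genes stood below the background of 25.3% and housekeeping genes above it. Cell cycle genes had inside summits at 2 of 18 and cholesterol synthesis genes at 2 of 20, although all 38 were acetylated in both lines. Mcm2 and Aurkb were the cell cycle members, and Dhcr7 and Mvk the cholesterol ones. Their median acetylated lengths were short, 2.47 kb and 1.96 kb for cell cycle genes and 2.58 kb and 1.92 kb for cholesterol genes. Over all acetylated genes, the length bins with medians of 1.98 kb and 2.85 kb in 129O1 had inside summits in 20.8% and 32.3%. Housekeeping genes, with 4.75 kb and 3.61 kb, had them at 7 of 13 (53.8%), beside 49.2% in the bin with a median of 4.19 kb in 129O1.

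Genes of other cell types were mixed. Inside summits were at 8 of 16 neuron genes, 6 of 14 astrocyte genes, 2 of 12 microglia genes and 0 of 12 pluripotency genes. The share over all genes was 25.3%. In 129O1 the median acetylated length was 1.79 kb for neuron, 3.80 kb for astrocyte, 0 kb for microglia and 0.991 kb for pluripotency genes. Syt1, a synaptic vesicle sensor, had 1 central summit at 23.7-fold in 129O1 and 19.6-fold in EpiSC5 in H3K27ac peaks of 853 bp and 880 bp, and neither lay in OL H3K27ac. Map2 had 13 and 9 inside. Fabp7, a radial glia and progenitor protein that is also on the astrocyte list, had 3 and 3.

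The genes with most outside summits were long. Lsamp, an adhesion gene of 2197 kb, had 17 in 129O1 and 9 in EpiSC5, and Auts2 had 10 and 10 of 12 and 12. Among 389 genes with 5 or more summits in each line, 64 had all of them inside and 1 had all outside. That gene was Glis3, a zinc finger factor, with 5 summits in each line, at 4.09-fold to 16.2-fold in 129O1 and 4.81-fold to 11.3-fold in EpiSC5. They lay 38.3 to 118 kb from the nearest H3K27ac in 129O1 and 36.7 to 117 kb in EpiSC5, and 2 of the 5 lay in OL H3K27ac in each line. At the other end Cuedc1 (10 and 9 summits), Igf1r (10 and 7), Fyn and Notch1 had every summit inside. Igf1r encodes the IGF1 receptor.

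Some long acetylated genes lacked SOX6 altogether. Ahdc1 had 17.3 kb of acetylation in 129O1 and 14.2 kb in EpiSC5 and no summit, and Sall3, a zinc finger repressor, 12.6 kb and 10.6 kb. Bcl9l, Casq1, Cd63, Clic4, Dcaf8 and Elavl1 followed with 7.35 to 10.3 kb over both lines. Among the 5 widest H3K27ac peaks without a summit in each line were those over Sall3 in both lines (12579 bp and 10584 bp), over Hoxa9 and Hoxa10 in 129O1 (10494 bp; no H3K27ac there in EpiSC5), over Map3k1 in 129O1 (10073 bp) and over Hoxb2 and Hoxb3 in EpiSC5 (18247 bp). Hox genes set position along the body axis. The 129O1 peaks that overlapped the Hoxb3 domain of EpiSC5 held 1 summit, and the Dleu2 locus on chromosome 14 held none in either line (9786 bp and 9167 bp).

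The H3K27ac peaks with most summits in either line were those over Mir9-2 and Mir9-1. Mir9-2 lay in a 30.8 kb H3K27ac peak with 13 summits in 129O1 (chr13:83715126-83745953) and a 26009-bp peak with 7 summits in EpiSC5. Mir9-1 lay in 34.8 kb with 10 summits in 129O1 (chr3:88199506-88234255) and 30.8 kb with 8 in EpiSC5. Mir9-3 lay in a 41.4 kb peak with 8 summits in 129O1 (chr7:79496237-79537657), the widest of that list, but in EpiSC5 the same span held 7 separate peaks with 4 summits and the peak over the gene had none. The strongest summits reached 30.2-fold in 129O1 and 26.5-fold in EpiSC5 at Mir9-2, and 17.5-fold and 15.4-fold at Mir9-1. Per kb, the Mir9-2 domain held 0.422 and 0.269 summits and the Mir9-1 domain 0.288 and 0.260, close to the 0.289 and 0.247 of all peaks in the widest bin except for Mir9-2 in 129O1.

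**Figure D5:**
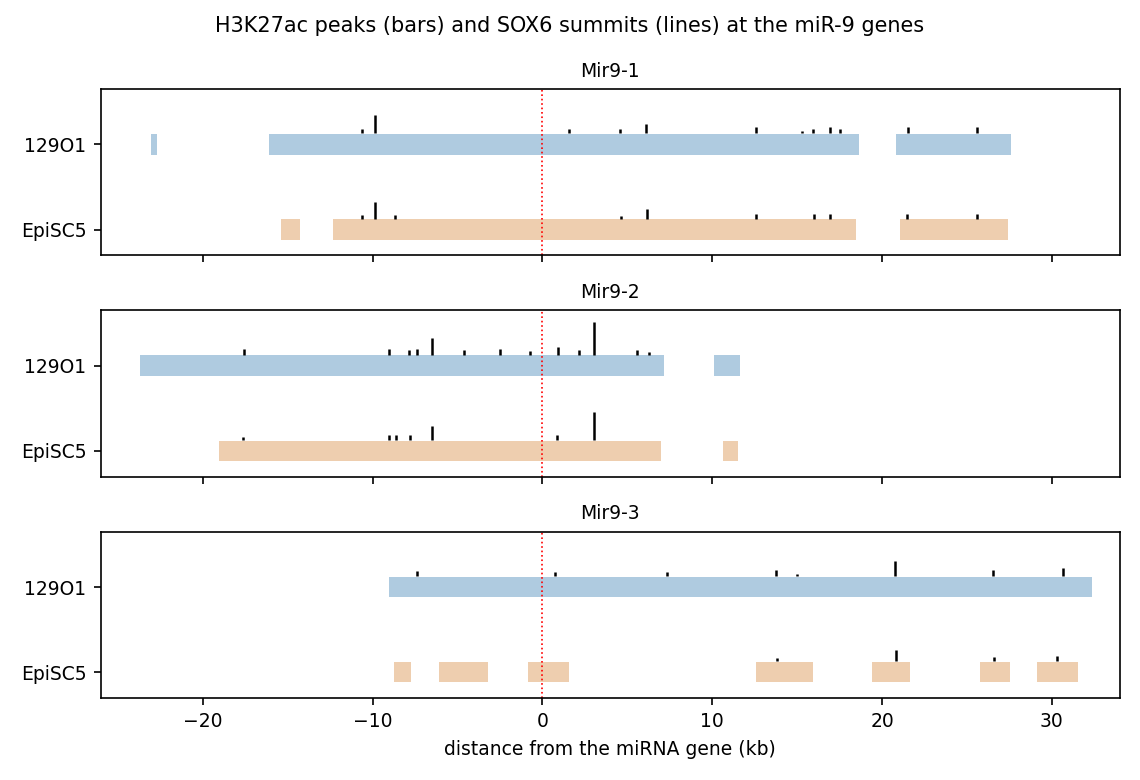
H3K27ac peaks (bars) and SOX6 summits (vertical lines, height proportional to the fold) around the 3 miR-9 genes, by distance in kb from the gene (dotted red line), 129O1 above EpiSC5. The Mir9-3 span is 1 peak in 129O1 and 7 in EpiSC5, while the main summits line up between lines.

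Of 1090 miRNA genes on chromosomes 1 to 19, 111 lay in H3K27ac in both lines. Of these, 30 (27.03%) shared their H3K27ac peak with a summit in both. Over all H3K27ac peaks, 43.8% held a summit in 129O1 and 33.2% in EpiSC5. Among protein-coding genes acetylated in both lines, 38.4% had an inside summit in both, counted with 10 kb to each side. The miRNA share was below all of these. Among the miRNA genes only Mir9-1, its neighbour Mir3093 and Mir9-2 had 3 or more summits in both lines. Mir124a-3 and Mir125b-1, both of known neural expression, had 1 and 1, and 3 and 1. Other domains with many summits lay over protein-coding genes: Sox2, a SoxB factor of neural progenitors, with 9 in a 20.9 kb peak in 129O1 and 4 in a 20.7 kb peak in EpiSC5, Midn with 5 in EpiSC5, and Trib2, a pseudokinase gene, with 7 in the 129O1 peak and 5 in the EpiSC5 peak.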

How the data were processed

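The authors precipitated H3K27ac and SOX6 from OPCs and OLs and deposited peak lists on mm10. The submitters' processing notes name bedtools, deepTools and Picard, with Bowtie2 at version 2.3.2 and Trim Galore at 0.3.1. No source used here names the peak caller or gives mapped reads per library, so depth is unknown beyond the labels' minimum of 20000000 reads and no counting intervals were made. Each deposited peak has a score and further columns without a header. The deposited columns were read by the usual broad and narrow peak layout as a fold enrichment (a ratio) and −log10 p and q values from the authors' peak calling, with a summit offset in SOX6 peaks. Every fold in the text rests on that reading. The lowest −log10 q in the 4 lists lies between 3.00 and 3.07. A list cut at a threshold and a wider call for H3K27ac than for SOX6 can both move summits between classes. One list was deposited per library, with 1 library per line and target, and 2 samples of input were not used here.

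Summits were placed with Python 3.11.15, numpy 2.4.6 and pandas 2.3.3, and the placing was tested on simulated summits. A SOX6 list was set only against the H3K27ac list of its own line, so the lines are paired through their shared cells. Differences were tested by exact sign-flip permutation over 2 lines, with Benjamini-Hochberg adjustment over 8. Genes and starts came from RefSeq GRCm38.p6, the assembly of mm10. Members, gene lists and loci were chosen with earlier results of these data known. Named genes are those with most summits of each class, the highest shares inside or outside, the longest acetylation without SOX6, the richest and widest domains, a set list of lineage genes and up to 4 members of each gene list. The strongest inside site on chromosome 14, the strongest far site on chromosome 13, Mir124a-3, Mir125b-1, Rlbp1, Sox9, Nkx6-2, Tmem125 and Hapln2 were chosen after their values were seen. A gene that the rule names is not reported here. Alternatives changed the peak threshold, the summit definition, the border distances, the chromosomes, the gene window, the line pairing and the lines left out.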

Additional observations from a re-analysis of the deposited data

Results flagged for a closer look

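The difference in H3K27ac fold between peaks with and without SOX6 had one sign in peaks of middle width and the other in the widest. In the 4 narrower of 5 width bins the log2 ratio, with over without SOX6, was below 0 in both lines. In the third bin it was -0.10 in 129O1 and -0.04 in EpiSC5, and in the widest bin it was 0.14 in 129O1 and 0.12 in EpiSC5. Both lines thus moved one way in the one bin and the opposite way in the other, and the difference between the bins was not tested. Split by whether a peak covered a gene start, the third bin gave ratios above 0 in both lines and both kinds of peak, from 0.03 to 0.13.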

How the results depend on the processing

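Of 66 alternatives to results with a test, 62 kept their direction. Those with both lines gave exact permutation p values of 0.5 or 1, which cannot pass a threshold. The share of summits inside acetylation was 72.2% with the higher-scoring 50% of SOX6 peaks and 42.4% with the higher-scoring 50% of H3K27ac peaks, against 65.4%. With those H3K27ac peaks the log2 ratio of SOX6 fold inside over outside was -0.065, against 0.037. The H3K27ac fold ratio within width bins, -0.0041, was 0.0068 with the higher-scoring 50% of H3K27ac peaks and 0.0048 without the replicate block, that is with the H3K27ac list of the other line in place of the pairing. Without the pairing the inside share was 63.9%, and no other direction turned. The class shared by both lines was 82.9% of sites with the higher-scoring SOX6 peaks, against 81.4%. Genes with inside summits in both lines numbered 3141 for the gene body alone, 9266 with 50 kb added to each side and 2940 with the higher-scoring SOX6 peaks, against 5230; the causes were not tested beyond the smaller or larger window or list. The excess within 2 kb outside a peak fell to 0.32 (log2) with the higher-scoring 50% of H3K27ac peaks, where removed peaks count as outside.

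Leaving out each line in turn gave 64.1% to 66.7% inside, 2.23 to 2.43 for centre over periphery, -2.93 to -1.93 for gap over periphery, 1.99 to 2.54 for near over far, 0.60 to 0.60 for width and 0.09 to 0.64 for summits per kb. It gave -0.016 to 0.0078 for H3K27ac fold within width bins, 0.03 to 0.04 for SOX6 fold, 1.18 to 1.51 for OL acetylation and 5486 to 8066 genes. Gaps of at most 1 kb gave no value, as 129O1 has none. Under the other gene windows and stricter lists 34 to 51 of the 94 named genes changed their mean inside count by more than 1 SD of the 2 lines. Unknown mapped depth and a single library in each of 2 lines limit all of these values, and a summit missing from a list may be missed at its threshold.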
